A study of Mus musculus with 12 samples.

Results

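The genes described here encode the MHC class II antigen presentation pathway: H2-Aa, H2-Ab1, H2-Eb1, Cd74, Ciita, H2-DMa, H2-DMb1, H2-DMb2, H2-Oa and H2-Ob. They were taken by symbol from the authors' deposited comparison table, where all 10 were found among 13703 genes. RNA came from pancreatic islets of female wild-type NOD/ShiLtJ mice, in which leukocytes invade the islets and autoimmune diabetes follows. The mice were euglycemic and 9 weeks old when dosing began, and were given either IgG or anti-CD3 at 2.5 mg/kg in weekly doses over 4 weeks. Anti-CD3 binds the complex through which the T cell receptor signals. Islets were collected 2 to 3 days after dosing ended. Both groups held 6 libraries, sequenced from poly(A)-selected RNA. The labels do not say whether a library came from 1 mouse or from several, so a p-value here reflects only the scatter of these libraries, part of which may be technical.

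MHC class II molecules are heterodimers that carry peptides from the endosome to the cell surface, where CD4 T cells read them. B cells, dendritic cells and macrophages express them constitutively or on activation, and interferon gamma can induce them in other cells through the coactivator CIITA. In NOD mice the class II region is the strongest genetic determinant of diabetes: the strain carries its own allele of the I-A beta chain (H2-Ab1), and it makes no I-E molecule because the I-E alpha chain gene is not expressed. The invariant chain (Cd74) escorts new class II molecules, H2-DM exchanges its remnant for peptides, and H2-O inhibits H2-DM, mainly in B cells.

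Class II promoters are known for an X box, bound by the RFX complex, followed by a Y box, bound by NF-Y, the scaffold to which CIITA docks. The upstream stretches below are shown as a description, and any link to how the members varied across libraries was not tested. RefSeq promoters on GRCm38.p6 were examined for 7 of the 10 members (H2-Oa, H2-DMa, H2-DMb2, H2-DMb1, H2-Ob, H2-Aa and H2-Eb1). Those of H2-Ab1, Cd74 and Ciita were not examined, so the counts below say nothing about them. Each line gives 100 bases, 5′ to 3′ on the gene's strand, from -130 to -31 relative to the annotated start. Capitals mark TGATTGG (Y box core) and AAC, any 2 bases, then ATGATG (X box core), searched on both strands; the letters were chosen after the sequences were seen, and the marked matches do not overlap.
H2-Eb1: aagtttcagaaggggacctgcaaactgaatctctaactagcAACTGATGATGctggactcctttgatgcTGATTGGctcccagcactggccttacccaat
H2-DMb1: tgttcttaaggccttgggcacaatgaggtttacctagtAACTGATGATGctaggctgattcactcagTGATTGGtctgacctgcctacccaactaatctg
H2-DMb2: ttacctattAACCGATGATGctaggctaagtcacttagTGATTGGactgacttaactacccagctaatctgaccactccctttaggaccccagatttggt
H2-Ob: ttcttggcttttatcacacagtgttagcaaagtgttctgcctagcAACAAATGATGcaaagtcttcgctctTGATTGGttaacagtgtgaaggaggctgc
H2-Aa: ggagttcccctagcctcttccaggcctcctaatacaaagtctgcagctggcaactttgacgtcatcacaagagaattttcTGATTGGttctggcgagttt
H2-Oa: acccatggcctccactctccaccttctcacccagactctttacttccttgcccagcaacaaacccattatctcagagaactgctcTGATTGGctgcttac

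TGATTGG stood in the 300-base window of 6 of the 7 genes, against 7.82% of all 32851 promoters in the table. The X box core stood in 4 of the 7, against 0.137% of all promoters, and in each case it lay upstream of TGATTGG with 15 to 18 bases between them (18 in H2-DMb1 and H2-DMb2, 17 in H2-Eb1, 15 in H2-Ob). Both motifs occurred together in 9 of the 32851 windows (0.0274%). Of these 9, 4 belonged to the members examined here, and the genes of the others were not looked up. The TGATTGG match began at -45 in H2-Oa, -50 in H2-Aa, -59 in H2-Ob, -61 in H2-Eb1, -63 in H2-DMb1 and -92 in H2-DMb2. Neither motif was found in the windows of H2-DMa. Because the letters were chosen with these sequences in view, the shares set beside all promoters are no test of enrichment. A match is a description of letters and was not tested for binding. Variants of these letters were not searched, so a window without a match may still hold an X box or a Y box. The printed stretches were chr17:34305737-34305836, chr17:34153061-34153160, chr17:34145119-34145218, chr17:34238775-34238874 and chr17:34092249-34092348 on the plus strand, and chr17:34287854-34287953 on the minus strand.

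**Figure D1:**
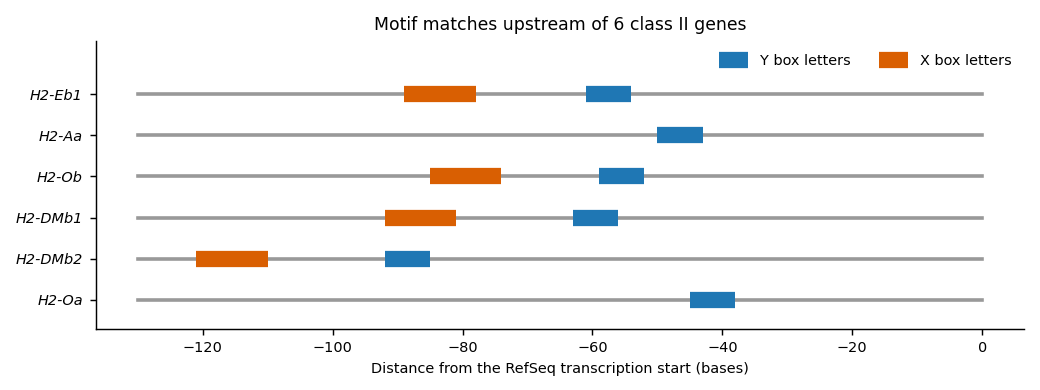
Horizontal axis: distance in bases from the RefSeq transcription start. Each grey line is 1 of the 6 class II promoters with a match, with the Y box letters (TGATTGG) and the X box letters as bars drawn to scale. In 4 promoters the X box letters lie 15 to 18 bases upstream of the Y box letters. Variants of these letters were not searched.

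Of the 10 genes, 8 lie together on chromosome 17 (GRCm38, GENCODE M21), and the values sum reads over all exons of each. From low to high coordinate these were H2-Oa (ENSMUSG00000024334; 34092340 to 34095234), H2-DMa (ENSMUSG00000037649; 34119541 to 34139101) and H2-DMb2 (ENSMUSG00000037548; 34143307 to 34151555). H2-DMb1 (ENSMUSG00000079547; 34153072 to 34160230), H2-Ob (ENSMUSG00000041538; 34238903 to 34254414) and H2-Ab1 (ENSMUSG00000073421; 34257689 to 34269419) followed. H2-Aa (ENSMUSG00000036594) spans 34282744 to 34287823 on the minus strand, and H2-Eb1 (ENSMUSG00000060586) spans 34305867 to 34316674. Ciita (ENSMUSG00000022504) lies on chromosome 16 from 10480059 to 10528418, and Cd74 (ENSMUSG00000024610) on chromosome 18 from 60803848 to 60812652. Each is a protein-coding gene in that annotation. H2-DMb1 and H2-DMb2 are close copies: 22.7% of the 50-base windows of H2-DMb1 transcripts also occur in those of H2-DMb2, so their reads can be shared. H2-DMa shares 8.43% of such windows with the overlapping gene Brd2, H2-Oa 15.5% with BC051537 and Ciita 1.46% with Dexi, and the share of H2-Ab1, H2-Eb1, Cd74 and H2-Ob with any other gene was 0. The alignment used the C57BL/6 reference, and its effect on reads from NOD class II alleles was not tested.

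Total counts ran from 10994337 to 19284740 per library. The libraries were labelled as islets and held endocrine transcripts, with summed normalized counts of 10 endocrine marker genes between 201201 and 356658, but exocrine transcripts prevailed in most. Reads of 31 acinar genes made up 60.3% ± 15 of a library in IgG against 70.0% ± 1.5 in anti-CD3 (SD, n = 6 each). IgG 5, with 55.2%, and IgG 6, with 32.3%, stood below the other 10 libraries, which lay between 64.6% and 72.1%. Results that rest on these libraries are given with and without them. In bulk RNA, fewer cells of a type and less RNA per cell cannot be told apart.

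Class II transcripts varied far more between libraries of 1 group than between the groups. The 10 genes together took between 0.0135% and 0.713% of the counts in IgG (median 0.0778%) and between 0.00912% and 0.0790% in anti-CD3 (median 0.0324%). The highest library, IgG 6, stood above all others, and the lowest of each group, IgG 3 and anti-CD3 3, lay close together. Over all 12 libraries the share spanned 78.2-fold, and 15.5-fold without IgG 6. As a share of the non-acinar counts it still spanned 35.9-fold, or 10.7-fold without IgG 6. The median SD of log2 CPM (log2 of library-scaled counts) over 12 libraries was 1.34 for the 9 members tested and 0.41 for all 13115 genes tested.

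All 9 tested members had lower values in anti-CD3 (median log2 fold change -1.21), while 55.2% of all genes tested were negative and their median was -0.05. None of the 9 passed at an adjusted p of 0.05 (edgeR quasi-likelihood test, 0 of 9, where 0.0762% of all genes passed). DESeq2 and limma-voom also called 0 of 9, against 4.04% (1.23% lower) and 1.03% (0.137% lower) of all genes; in edgeR 0.0% were called lower. At an unadjusted p under 0.05, 2 of 9 were lower in edgeR (8.68% of all genes lower, 18.4% in either direction), 2 in DESeq2 (9.93% and 19.7%) and 1 in limma-voom (8.53% and 19.4%). That count rested on single libraries: in edgeR it was 0 of 9 without IgG 6 (6.51% of all genes lower) and 7 of 10 without IgG 3 (10.2%), where H2-Oa was tested too. With the replicate number as a block, which the labels do not describe as a pairing, it was 7 of 9 (9.78%). H2-Oa, the tenth member, had too few counts to be tested. In all 10 genes the groups overlapped, and for 0.648% of all genes every anti-CD3 library lay below every IgG library.

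The chains of the I-A molecule came first in abundance with Cd74 and H2-Eb1. H2-Ab1, the I-A beta chain, had normalized counts (counts divided by the authors' size factor of the library) of 1713, 1637, 366, 1037, 2105 and 8056 in IgG 1 to IgG 6. In anti-CD3 1 to anti-CD3 6 they were 2411, 552, 284, 1002, 629 and 2271.5. Only IgG 6 exceeded the highest anti-CD3 libraries, anti-CD3 1 and anti-CD3 6, which lay above the other 5 IgG libraries. The log2 fold change of H2-Ab1 was -1.06 ± 0.68 (SE, n = 6 per group; edgeR adjusted p = 0.418). H2-Aa, the I-A alpha chain, had normalized counts from 532 to 8371 in IgG (median 1794) and from 331 to 3445 in anti-CD3 (median 1053), with a log2 fold change of -0.76 ± 0.67 (SE; edgeR adjusted p = 0.551). H2-Eb1, the I-E beta chain, ran from 531 to 10459.3 in IgG (median 2434) and from 335 to 3595 in anti-CD3 (median 1244), at -1.01 ± 0.67 (SE; edgeR adjusted p = 0.430). Its partner, the I-E alpha gene annotated as the pseudogene H2-Ea-ps, had 9 counts over the 6 IgG libraries, 6 of them in IgG 6, and 0 over the 6 anti-CD3 libraries.

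Cd74, the invariant chain, had the highest normalized counts of the pathway. They ran from 839 to 16904.5 in IgG (median 4394) and from 551 to 5878 in anti-CD3 (median 2076). The highest anti-CD3 library, anti-CD3 1, exceeded every IgG library but IgG 6. The log2 fold change was -1.11 ± 0.66 (SE; edgeR adjusted p = 0.383).

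Ciita, the coactivator that switches on class II genes, had the smallest p of the family. Its normalized counts were 56.8, 45.9, 6.75, 28.8, 47.6 and 167 in IgG 1 to IgG 6, and 16.2, 17.2, 7.28, 23.4, 24.1 and 31.0 in anti-CD3 1 to anti-CD3 6. All 6 anti-CD3 libraries lay below the IgG median of 46.7, and 5 of them lay below every IgG library other than IgG 3. The difference amounted to a log2 fold change of -1.58 ± 0.56 (SE; edgeR adjusted p = 0.176), or 2.99-fold lower, and did not pass the test. The authors' deposited table gives -1.58 with an adjusted p of 0.0681. Counts of Ciita were low, from 6 to 421 per library.

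H2-DM, the peptide exchange factor, is built from H2-DMa and either of 2 beta chains. H2-DMa ran from 34.9 to 359 normalized counts in IgG (median 101) and from 19.4 to 95.7 in anti-CD3 (median 47.6), with all 6 anti-CD3 libraries below the IgG median. Its log2 fold change was -1.28 ± 0.54 (SE; edgeR adjusted p = 0.238). H2-DMb1 ran from 5.63 to 176 in IgG (median 37.9) and from 4.26 to 63.3 in anti-CD3 (median 16.3), at -1.21 ± 0.73 (SE; edgeR adjusted p = 0.391). H2-DMb2 ran from 6.75 to 588 in IgG (median 98.7) and from 6.07 to 110.5 in anti-CD3 (median 43.3), at -1.61 ± 0.85 (SE; edgeR adjusted p = 0.329).

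H2-O, the inhibitor of H2-DM, was the least abundant dimer. H2-Ob ran from 10.1 to 400 in IgG (median 57.0) and from 2.43 to 68.6 in anti-CD3 (median 32.4), at -1.66 ± 0.88 (SE; edgeR adjusted p = 0.329). IgG 6 held 5.40 times the highest value of any other library for H2-Ob and 5.13 times for H2-DMb2, against 2.43 to 4.12 times for the other 8 members. H2-Oa had normalized counts of 19.7, 6.18, 0, 3.60, 17.2 and 89.3 in IgG 1 to IgG 6 and of 21.7, 2.46, 0, 1.73, 7.10 and 13.5 in anti-CD3 1 to anti-CD3 6. IgG 3 and anti-CD3 3, the libraries without a read of H2-Oa, were also the lowest of their groups for H2-Ab1.

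**Figure D2:**
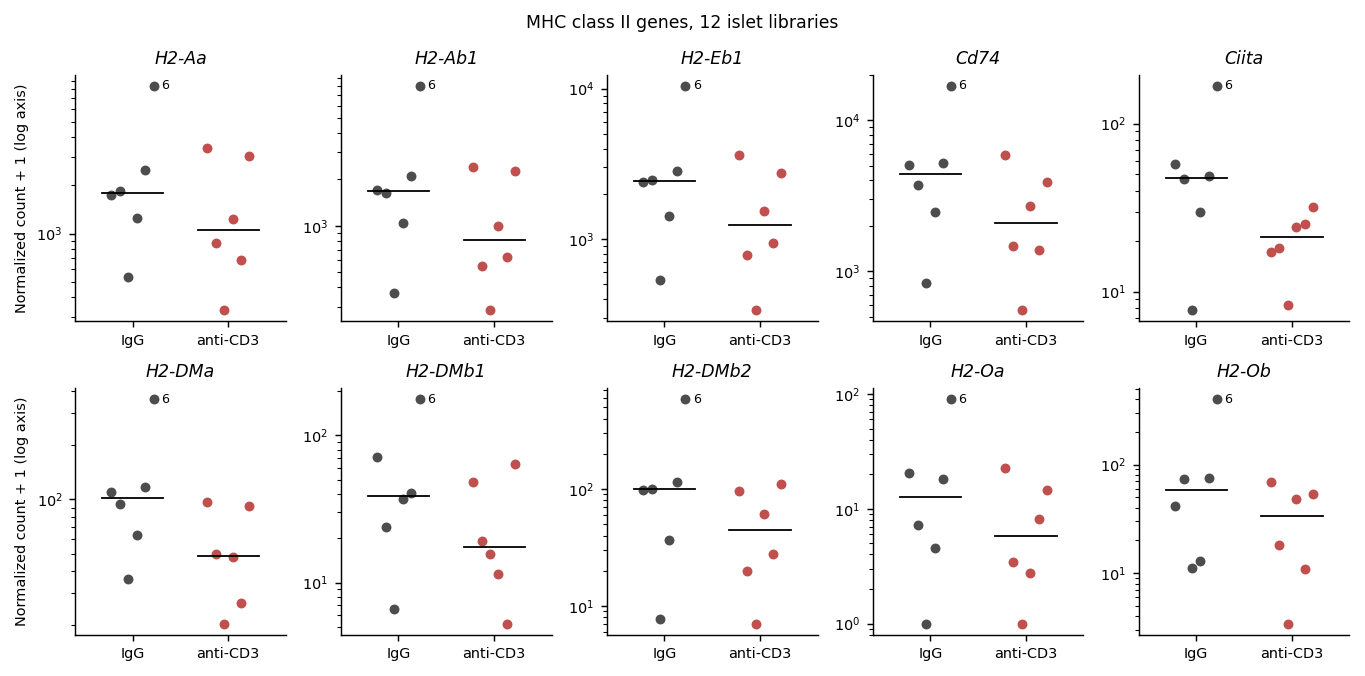
Vertical axes: normalized count + 1 on a log axis; 1 panel per class II gene. Points are the 6 IgG (grey) and 6 anti-CD3 (red) libraries, bars are group medians, and the point marked 6 is IgG 6. IgG 6 is the highest library in all 10 panels, and the groups overlap in every panel.

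The size of the difference rested on IgG 6. Without that library the median over the 9 tested members went from -1.21 to -0.40, with 8 of 9 below zero and H2-Aa at 0.02. H2-Ab1 was then at -0.21, H2-Eb1 at -0.23, Cd74 at -0.40 and H2-Ob at -0.40. Without IgG 5 and IgG 6, the libraries of low acinar share, the median was -0.21, and H2-Ab1 (-0.01) and H2-Eb1 (-0.05) were near 0. Ciita, less negative than H2-Ob and H2-DMb2 over all 12 libraries, had the most negative value of the 9 in both cases, at -0.92 ± 0.44 and -0.81 ± 0.47 (SE; edgeR adjusted p = 0.326 and 0.590), followed by H2-DMa at -0.64 and -0.49. With a covariate for the acinar score of each library the median was 0.46. Ciita (-0.28 ± 0.45) and H2-DMa (-0.09 ± 0.46) were the 2 of 9 members that remained below zero, both within 1 SE of it (edgeR adjusted p = 0.893 and 0.974). The number of members past the edgeR test was 0 in each of these fits.

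**Figure D3:**
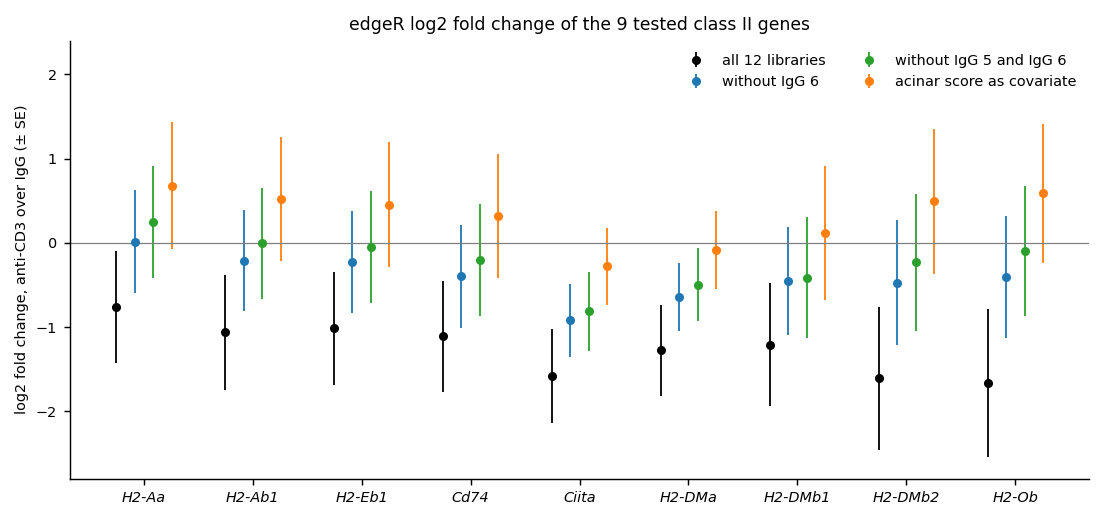
Vertical axis: edgeR log2 fold change, anti-CD3 relative to IgG, with bars of ± 1 SE, for the 9 tested class II genes. Colours show the fit on all 12 libraries, without IgG 6, without both IgG 5 and IgG 6, and under an acinar covariate. Values move from a median of -1.21 to -0.40, -0.21 and 0.46 in that order. Ciita and H2-DMa stay below zero in all 4, but lie within 1 SE of zero under the acinar covariate.

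Compared per length, the order of levels was the same in nearly all libraries for the 4 abundant members and varied among the scarce ones. Mean normalized counts per kilobase of exon over the 12 libraries were 2485 for Cd74, 1290 for H2-Eb1, 716 for H2-Ab1 and 567 for H2-Aa. Cd74 exceeded H2-Eb1, and H2-Eb1 exceeded H2-Ab1, in 12 of 12 libraries, and H2-Ab1 exceeded H2-Aa in 11 of 12. The next level per kilobase was that of H2-DMb2, at 60.1, below H2-Aa in 12 of 12 libraries. H2-DMb2 exceeded H2-DMa (26.6) in 9 of 12, while H2-DMa and H2-DMb1 (25.2) could not be ordered, with H2-DMa higher in 6 of 12. H2-DMb1 exceeded H2-Ob (12.5) in 11 of 12. H2-Ob, H2-Oa (10.8) and Ciita (4.13) had no fixed order, with H2-Ob above H2-Oa in 8 of 12 and H2-Oa above Ciita in 6 of 12. The exon lengths are unions over all annotated transcripts, 3798 bases for H2-Aa and 1679 for Cd74, and a gene with long alternative exons appears lower on this scale.

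The makeup of the class II transcripts was alike in both groups although their amount varied. Cd74, H2-Aa, H2-Ab1 and H2-Eb1 together held 96.1% to 97.8% of the members' counts in every library. Cd74 took 39.0% ± 3.14 of these counts in IgG and 36.8% ± 3.03 in anti-CD3, H2-Eb1 22.6% ± 1.17 and 22.7% ± 1.58, H2-Ab1 16.2% ± 0.86 and 16.4% ± 1.68, and H2-Aa 19.0% ± 2.38 and 21.3% ± 2.49 (SD, n = 6 each). Among the 36 pairs of tested members, Pearson r of log2 CPM over 12 libraries ran from 0.723 to 0.996 with a median of 0.946, and from 0.56 to 0.99 with a median of 0.91 without IgG 6. These are descriptions over libraries that share depth and acinar share.

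Ratios of single genes inside a library do not depend on its scaling, and 14 of them were compared between the groups. The log2 ratio of H2-Aa to H2-Ab1 was 0.22 ± 0.19 in IgG against 0.37 ± 0.20 in anti-CD3 (n = 6 each, ± SD; exact permutation test, two-sided, p = 0.186, adjusted p = 0.869 over 14 ratios). Across all 12 libraries it ranged over 0.62 log2 units. H2-Eb1 to H2-Ab1 was 0.48 ± 0.08 and 0.47 ± 0.17 (SD; exact permutation p = 0.853), and Cd74 to H2-Ab1 was 1.26 ± 0.17 and 1.16 ± 0.26 (SD; exact permutation p = 0.444). The scarce members varied more against H2-Ab1. Ciita to H2-Ab1 was -5.31 ± 0.29 in IgG against -5.58 ± 0.91 in anti-CD3 (SD; exact permutation p = 0.539). Its lowest values were in anti-CD3 1 (-7.14) and anti-CD3 6 (-6.17), the anti-CD3 libraries with the highest H2-Ab1, while the other 10 libraries lay between -5.65 and -4.66. H2-DMb2 to H2-DMb1 ranged from -1.18 in anti-CD3 3 to 2.48 in anti-CD3 5, with as few as 3 counts of H2-DMb1.

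Against leukocyte genes, H2-Ab1 shifted least relative to Csf1r, Cd79a and Ptprc. The log2 ratio of H2-Ab1 to Ptprc, the pan-leukocyte gene CD45, was 2.08 ± 0.60 in IgG against 2.25 ± 0.48 in anti-CD3 (n = 6 each, ± SD; exact permutation p = 0.587). To Cd79a, a chain of the B cell receptor complex, it was 4.88 ± 0.52 and 4.75 ± 0.65 (SD; exact permutation p = 0.695). To Csf1r, the macrophage growth factor receptor, it was 4.16 ± 0.36 and 4.18 ± 0.76 (SD; exact permutation p = 0.961). To Itgax, the integrin CD11c of dendritic cells, it was 4.06 ± 0.50 in IgG against 4.71 ± 0.43 in anti-CD3 (SD; exact permutation p = 0.0325, adjusted p = 0.455). To Cd3e, which encodes the CD3 epsilon chain, it was 4.83 ± 0.67 and 5.49 ± 0.27 (SD; exact permutation p = 0.0671, adjusted p = 0.470). None of the 14 ratios passed after adjustment, where the smallest p that 6 against 6 libraries allow is 0.00216, and 1 of 14 had an unadjusted p under 0.05.

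**Figure D4:**
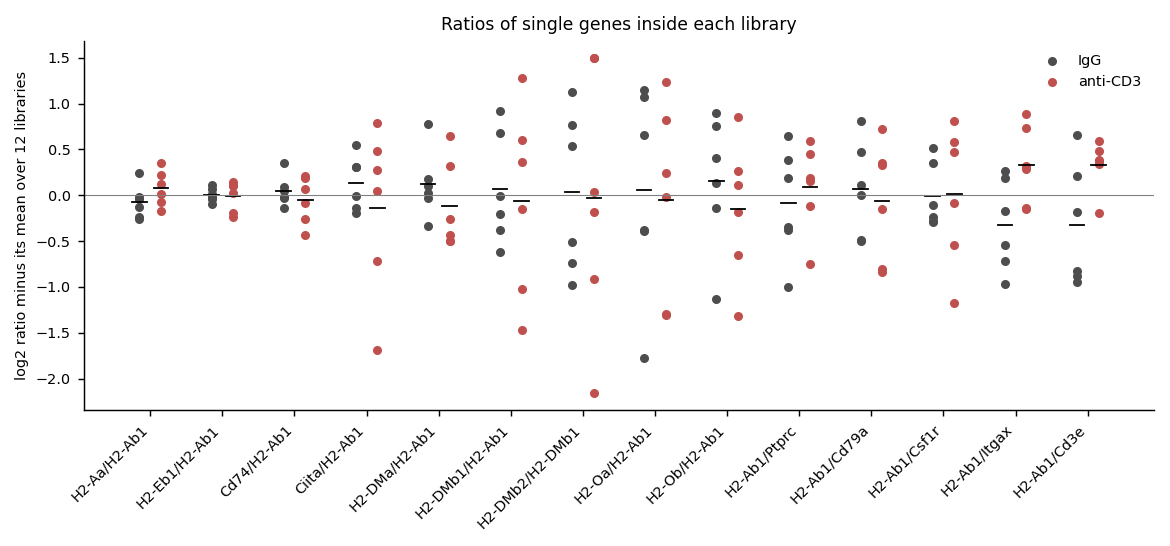
Vertical axis: log2 ratio of 2 genes in a library minus its mean over 12 libraries, for 14 ratios. Points are libraries (IgG grey, anti-CD3 red) and short bars are group means. The ratios among Cd74, H2-Aa, H2-Ab1 and H2-Eb1 are the narrowest, and the Ciita ratio is lowest in anti-CD3 1.

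Across libraries H2-Ab1 followed leukocyte transcripts. Over 12 libraries Pearson r of log2 CPM with Ptprc was 0.96 (permutation p = 2e-05, adjusted p = 0.00042 over 21 relations) and Spearman rho 0.87 (permutation p = 0.00055, adjusted p = 0.00445). Without the 2 libraries farthest from the Ptprc median (IgG 6 and anti-CD3 3), r was 0.90. Within groups r was 0.95 in IgG against 0.96 in anti-CD3 (n = 6 each, exact permutation p = 0.00833 and 0.00556; adjusted p = 0.0149 and 0.0117), with rho of 0.83 and 0.89 (exact permutation p = 0.0583 and 0.0333; adjusted p = 0.0681 and 0.0583). With Cd79a r was 0.94 over 12 libraries (permutation p = 6e-05, adjusted p = 0.00042; rho = 0.88, permutation p = 0.00036, adjusted p = 0.00445), 0.96 in IgG and 0.90 in anti-CD3. With Csf1r it was 0.91 (permutation p = 9e-05, adjusted p = 0.00042, rho = 0.85, permutation p = 0.00093, adjusted p = 0.00445), 0.98 in IgG and 0.79 in anti-CD3. The Csf1r relation within anti-CD3 did not pass (exact permutation p = 0.0583, adjusted p = 0.0613). With Itgax and Cd3e r was 0.91 and 0.90 (permutation p = 0.0001 and 6e-05, adjusted p = 0.00042 for both; rho = 0.84 and 0.85, permutation p = 0.00106 and 0.00089). Without the 2 farthest libraries these 4 were 0.85, 0.81, 0.79 and 0.82. Pecam1, a marker of endothelial cells that leukocytes also carry, gave 0.89 (permutation p = 0.00016, adjusted p = 0.00056; rho = 0.78, permutation p = 0.00375, adjusted p = 0.00875; r = 0.80 without the 2 farthest). Within the 6 IgG libraries the r without IgG 3 and IgG 6 fell to 0.72 for Ptprc, 0.70 for Csf1r, 0.55 for Itgax, 0.61 for Cd3e and 0.55 for Pecam1, and was 0.97 for Cd79a, so most relations within IgG rested on these 2 libraries.

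With the acinar share of counts r was -0.71 over 12 libraries (permutation p = 0.00852, adjusted p = 0.0149) and rho -0.41 (permutation p = 0.184, adjusted p = 0.193). Without the 2 farthest libraries, IgG 5 and IgG 6, r was -0.24, so the pooled relation rested on them. In IgG r was -0.90 and rho -1 (n = 6, exact permutation p = 0.00139 and 0.00278; adjusted p = 0.00324 and 0.00729), or r = -0.80 without IgG 5 and IgG 6. In anti-CD3, where the acinar share ran only from 68.2% to 72.1%, r was 0.36 and rho 0.37 (n = 6, exact permutation p = 0.461 and 0.497, the same after adjustment), and r was 0.95 without anti-CD3 4 and anti-CD3 5. The value within anti-CD3 thus rested on those 2 libraries.

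**Figure D5:**
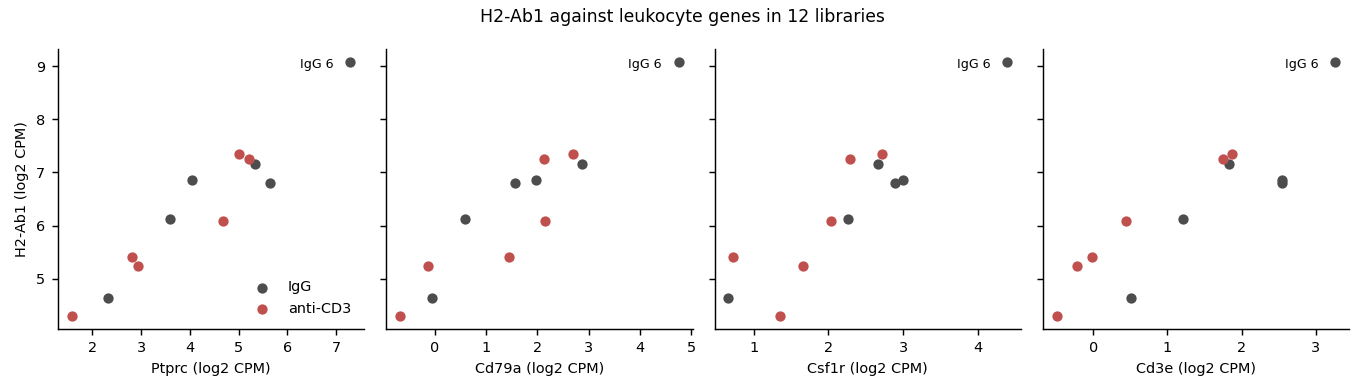
Vertical axis: H2-Ab1 in log2 CPM; horizontal axes: Ptprc, Cd79a, Csf1r and Cd3e in log2 CPM. Each point is a library (IgG grey, anti-CD3 red). H2-Ab1 rises with each gene (r from 0.90 to 0.96 over 12 libraries), IgG 6 lies at the upper end of each panel, and the groups overlap.

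Marker lists of the cells that carry class II were also lower in anti-CD3, by differing amounts. All 9 tested B cell genes, all 6 tested dendritic cell genes and all 10 macrophage genes were on the lower side in anti-CD3, at median log2 fold changes of -1.43, -0.57 and -0.60. All 10 T cell genes were lower as well, at -1.17. Of all genes tested, 55.2% were on the lower side. None of these 35 genes passed edgeR, and 5 were lower at an unadjusted p under 0.05 (0 B cell, 1 dendritic cell, 1 macrophage and 3 T cell genes). Among all genes tested 8.68% were lower at that level. Summed normalized counts of the B cell list ran from 33.8 to 2450 in IgG (505 without IgG 6) and from 15.8 to 536 in anti-CD3. Those of the macrophage list ran from 764 to 9375 (2908 without IgG 6) and from 726 to 3148, and those of the dendritic cell list from 239.7 to 3973 (1483 without IgG 6) and from 251 to 1402. No gene of these lists was at 0 in all libraries. Over all 12 libraries the endothelial and islet endocrine lists had medians of -0.11 and -0.11, with 6 of 8 and 7 of 10 genes lower. Without IgG 5 and IgG 6 the medians were 0.33 for B cells, 0.02 for dendritic cells, -0.04 for macrophages and -0.26 for T cells. The 9 class II members were then at -0.21. The part of these cells in the class II values was not tested.

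Upstream of Ciita, 6 of 7 tested genes of the interferon gamma route were on the lower side in anti-CD3 (median -0.46), against 55.2% of all genes. Of the 7, 0 passed edgeR, and 1 was lower at an unadjusted p under 0.05 (8.68% of all genes). Socs1, a feedback inhibitor of cytokine signalling, was at -1.48 ± 0.70 (SE; edgeR adjusted p = 0.281) and the kinase gene Jak1 at -0.43 ± 0.18 (SE; edgeR adjusted p = 0.222). Of the 1551 IgG counts of Socs1, 1238 were in IgG 6, and its log2 fold change was -0.26 without IgG 6 and -0.03 without IgG 5 and IgG 6. Ifng itself had too few counts in most libraries to be tested. IgG 6 held 631 of its 666 IgG counts, and the anti-CD3 libraries together held 38. The median of the 7 without IgG 5 and IgG 6 was -0.03.

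Of 7 tested genes for factors that bind the X and Y boxes, 3 were lower and 4 higher, with a median of 0.02. None passed edgeR, and 1 was higher at an unadjusted p under 0.05 (18.4% of all genes in either direction). Nfyb, the B subunit of NF-Y, which binds many promoters besides those of class II, ran from 255 to 484 normalized counts in IgG (median 400) and from 623 to 774 in anti-CD3 (median 678). Every anti-CD3 library lay above every IgG library, which held for 1.14% of all genes. Its log2 fold change was 0.82 ± 0.16 (SE; edgeR adjusted p = 0.0646). It passed with DESeq2 (adjusted p = 0.00082), limma-voom (adjusted p = 0.0288) and edgeR without a filter on low counts (adjusted p = 0.0142). Of the edgeR fits that left out 1 library, Nfyb passed only in that without anti-CD3 2 (adjusted p = 0.0316). Over all alternatives it stayed positive, at 0.63 without IgG 5 and IgG 6, and it was 0.55 under the acinar covariate (edgeR adjusted p = 0.192 and 0.398). Rfx5, the large RFX subunit, was at -0.39 ± 0.20 and Nfya, another NF-Y subunit, at -0.33 ± 0.23 (SE; edgeR adjusted p = 0.308 and 0.450).

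Genes of endosomal processing were divided. Of 8 proteases, inhibitors and reductases, 4 were lower and 4 higher, with a median of 0.00. None passed edgeR, and 2 were higher at an unadjusted p under 0.05 (18.4% of all genes in either direction). Cst3, the cathepsin inhibitor cystatin C, ran from 3471 to 5036 normalized counts in IgG (median 4245) and from 4878 to 8313 in anti-CD3 (median 6639). Its log2 fold change was 0.65 ± 0.17 (SE, edgeR adjusted p = 0.0911, DESeq2 adjusted p = 0.0119). Without anti-CD3 2 the edgeR adjusted p of Cst3 was 0.0471. The protease gene Ctsl was at 0.59 ± 0.20 and Ctsb at 0.27 ± 0.15 (SE; edgeR adjusted p = 0.159 and 0.336). The 31 acinar genes had a median of 0.68. Under the acinar covariate Cst3 was at 0.44, Ctsl at 0.30 and Ctsb at 0.36 (edgeR adjusted p = 0.451, 0.659 and 0.546). Whether acinar RNA accounts for these values was not tested. Among 4 tested genes of class II surface turnover, 0 of 4 passed edgeR. The tetraspanin Cd63 was at 0.51 ± 0.16 (SE, edgeR adjusted p = 0.138, DESeq2 adjusted p = 0.0441). Under the acinar covariate Cd63 was at 0.36 (edgeR adjusted p = 0.552). Cd83, which stabilises class II on the surface, was at -0.73 ± 0.70 (SE, edgeR adjusted p = 0.587).

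All 5 tested costimulatory genes and all 5 tested genes of CD4 T cells that meet class II were on the lower side in anti-CD3. Their medians were -0.69 and -1.24, where 55.2% of all genes were negative. None passed edgeR, and 0 of 10 were lower at an unadjusted p under 0.05 (8.68% of all genes). Icosl, the ICOS ligand, was at -1.04 ± 0.55, Tnfsf4, the OX40 ligand, at -1.21 ± 0.90, and Cd40, the receptor through which T cells license antigen-presenting cells, at -0.69 ± 0.66 (SE; edgeR adjusted p = 0.329, 0.478 and 0.585). Cd28, the receptor of the costimulators CD80 and CD86, was at -1.53 ± 0.77, Lag3, an inhibitory receptor that binds class II, at -1.31 ± 0.73, and Cd4, the class II coreceptor, at -1.24 ± 0.77 (SE; edgeR adjusted p = 0.307, 0.355 and 0.400). Without IgG 6 the log2 fold changes were -0.34 for Icosl, -0.15 for Tnfsf4, 0.19 for Cd40, -0.72 for Cd28, -0.46 for Lag3 and -0.31 for Cd4. Without IgG 5 and IgG 6 the medians of the 2 lists were 0.55 and -0.12. H2-Eb2, a further beta chain gene of the locus, ran from 4.50 to 213 normalized counts in IgG, against 0 to 49.8 in anti-CD3, at -1.44 ± 0.87 (SE; edgeR adjusted p = 0.390), or -0.37 without IgG 6.

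The genes whose pattern over the 12 libraries was most like the mean of the tested members, by Pearson r of log2 CPM among 12190 protein-coding genes without the members and predicted genes, were Il4ra (0.98), Ctss (0.98), Dock2 (0.98), Lyz2 (0.98) and Sept1 (0.98), then Thy1 (0.98), Hcls1 (0.98), H2-Q7 (0.98), Clec2i (0.98) and Jaml (0.98). Without IgG 6 the r of these 10 lay between 0.96 and 0.97. The ranking is a description over libraries that share depth and acinar share.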

How the data were processed

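Poly(A) RNA of 12 islet libraries was sequenced. Per the submitters' processing notes, Trimmomatic 0.36, STAR 2.5.2b, featureCounts of Subread 1.5.2 and DESeq2 were used with GRCm38 (mm10), and no source used here states the annotation release or the strand setting. The authors deposited whole-number counts for 49315 genes and, for 13703 of them, a normalized signal, a log2 fold change and p-values. Dividing each library's counts by 1 factor gives the deposited signal. 0 columns were left unmapped.

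Counts were tested in R 4.3.3 with edgeR 4.0.16 (filterByExpr, minimum count 10 and total 15, TMM, robust quasi-likelihood F test, Benjamini-Hochberg over 13115 genes, threshold 0.05, two-sided). Each SE is the fold change over the square root of F. Ratios used a prior count of 0.5 and correlations log2 CPM with a prior count of 2, with 100000 permutations for 12 libraries. Alternatives tried included other factors and filters, a replicate block, an acinar covariate (mean log2 CPM of 31 genes), left-out libraries, limma-voom (limma 3.58.1, quality weights) and DESeq2 1.42.0. The procedure was tested on simulated counts. Named genes were all members, up to 3 genes of smallest p per pathway list, the partners of ratios and correlations, and the 10 genes most alike. A gene that this rule names is not reported here. The members and lists were chosen with earlier results of these data known.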

Additional observations from a re-analysis of the deposited data

Results flagged for a closer look

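The summed share of the 10 class II genes in IgG 6, 0.713% of the counts, lay far from the other 5 IgG libraries, with 81.8% of the group's range between it and the next. The log2 ratio of H2-Ab1 to Cd3e in anti-CD3 3, 4.97, lay below the other 5 anti-CD3 libraries in the same way. Of 50 groups of 6 values examined, 2 stood out, and chance alone gives about 1 in 20.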

How the results depend on the processing

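The number of genes past the test, 10 of 13115 with edgeR, was 468 with DESeq2, 135 with limma-voom, 6 with upper-quartile factors, 167 without a filter on low counts, 0 with the acinar covariate and 1 without IgG 5 and IgG 6. Leaving out 1 library gave 0 to 203 genes (203 without anti-CD3 2). No member passed in any of the 22 settings, and the cause of these shifts was not tested. With the acinar covariate the median over the 9 members was 0.46, and log2 fold changes turned positive for H2-Aa (0.68), H2-Ab1 (0.52), H2-Eb1 (0.46), Cd74 (0.32), H2-DMb1 (0.12), H2-DMb2 (0.50), H2-Ob (0.59), H2-Eb2 (0.77), Nfya (0.0842), Socs1 (0.48), Cd83 (0.73), Icosl (0.27), Tnfsf4 (0.63), Cd40 (0.90), Lag3 (0.39), Cd4 (0.47), Ptprc (0.40) and Cd79a (1.05). Without IgG 5 and IgG 6 they turned positive for H2-Aa (0.24), H2-Eb2 (0.19), Cd83 (0.29), Tnfsf4 (0.00511), Cd40 (0.55) and Cd79a (0.45), as did the differences of the H2-DMb2/H2-DMb1 (0.24) and H2-Oa/H2-Ab1 (0.30) log2 ratios. A prior count of 2 gave 0.0449 for H2-Oa/H2-Ab1 and -0.00637 for H2-Ab1/Csf1r. Leaving out 1 library crossed zero for H2-Aa (-1.13 to 0.0166), Cd83 (-1.10 to 0.0192), Cd40 (-1.11 to 0.19) and the ratio differences of Ciita/H2-Ab1 (-0.45 to 0.0402), H2-DMb1/H2-Ab1 (-0.40 to 0.15), H2-Oa/H2-Ab1 (-0.48 to 0.14), H2-Eb1/H2-Ab1 (-0.0450 to 0.0317), H2-DMb2/H2-DMb1 (-0.38 to 0.35), H2-Ab1/Ptprc (-0.0135 to 0.34), H2-Ab1/Cd79a (-0.29 to 0.0236) and H2-Ab1/Csf1r (-0.14 to 0.25). The r of H2-Ab1 with acinar percent was -0.24 without IgG 5 and IgG 6, and -0.39 without IgG 6. With 3 counts of H2-DMb1 and 0 of H2-Oa in the poorest libraries, ratios of scarce members were imprecise.

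With the replicate number as a block 0 genes passed the adjusted test, and members lay between -1.24 and -0.70. In that fit 7 of 9 members were lower at an unadjusted p under 0.05, against 9.78% of all genes, and the SE of H2-Ab1 was 0.33 in place of 0.68. The labels do not say that a number marks a shared animal or batch. Deviations of same-numbered libraries correlated at 0.129, 0.552 and 0.537 for numbers 2, 3 and 6 and at 0.0626, -0.203 and -0.287 for numbers 1, 4 and 5, and 3 of 6 numbers correlated best with their own, a hint from the data. The fit without the block was the main one because the number carries no stated meaning. The correlations do not settle whether the numbers mark pairs.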
